A study of Mus musculus with 19 samples.

Results

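The fasting response shared by mice of both diets was measured as the difference between all 9 fasted and all 10 fed libraries of perigonadal fat, with diet as an added term in the fit. All 19 libraries of the series entered it, and every gene with enough counts was a member, which gave 16015 genes tested of the 24348 in the files. The mice were C57BL/6 in every group, sampled at peak weight, and the tissue was whole perigonadal adipose tissue. HFD fed mice (4 libraries) ate a 60% high-fat diet, and HFD fasted mice (4 libraries) were on the same diet and then spent 24 hours without food. Ensure fed mice (6 libraries) and Ensure fasted mice (5 libraries) were the same pair of states in a model fed Ensure, a liquid nutritional drink made for people. Each library is called by its group and its number in the labels. Fed mice at peak weight are the only baseline here, and the labels do not say that each library is a separate animal. The p-values therefore measure the spread between these libraries.

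White fat stores triglyceride in fed animals, under insulin, by taking up glucose and fatty acids and by making new fatty acids from acetyl-CoA. Without food, insulin falls and catecholamines and glucocorticoids rise, stored triglyceride is broken down by lipases, and the fatty acids leave for liver and muscle. Transcription factors that carry these signals include SREBP and ChREBP for lipid synthesis, FoxO factors when insulin is low, PPAR factors bound to fatty acids, and the glucocorticoid receptor.

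Libraries held 12823469 to 22552633 counts in genes (median 20228174), and levels are given as CPM, counts scaled to a common library total after TMM scaling. The tissue label was checked against 14 adipocyte markers, whose sum was 13600 CPM in Ensure fasted 5 and 19500 to 35900 CPM in the other 18 libraries. A few libraries also carried RNA typical of the neighbouring male tract. The sum of 16 epididymis and testis markers was 9920 CPM in Ensure fasted 5, 1130 CPM in Ensure fasted 2, 662 CPM in Ensure fed 10, 315 CPM in HFD fasted 24 and 237 CPM in Ensure fed 12. It was 12.7 to 80.9 CPM in the other 14 libraries, of which every one had at least 2 of the 16 genes at 0. Genes at 0 did not set these apart, since Ensure fed 10, Ensure fasted 2 and Ensure fasted 5 had 5, 4 and 2. These 5 libraries are called tract-rich below, by these 16 markers alone, and 3 of them are fasted. The sum of 12 tract epithelium markers gave another order. It was 454 CPM in HFD fed 21, 569 CPM in HFD fasted 26 and 458 CPM in Ensure fed 16, which are not among the 5. It was 101 CPM in Ensure fed 10 and 58 CPM in Ensure fed 12, which are. Sequencing lane, read from the codes in the labels, also moved with feeding within Ensure: 4 of the 5 fasted libraries were on lane 5 and 4 of the 6 fed libraries on lane 6, while all 8 HFD libraries shared lane 7. In whole tissue, fewer cells of a type and less RNA per cell cannot be told apart.

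Fasting moved a large part of the transcriptome. At an adjusted p under 0.05 in edgeR's quasi-likelihood test, 1925 genes were higher and 1926 lower after fasting, 12% of the genes tested in each direction and 24% in all. Many of the changes were small, with 878 of the higher and 1467 of the lower genes under 1.5-fold. The higher and lower sets differed in how cleanly the libraries separated. Every fasted library lay below every fed library, within HFD and within Ensure, for 510 genes (3.18% of genes tested), and every fasted library lay above for 106 (0.662%). All 616 of these (3.85% of genes tested) were called, and they were 26.5% of the lower calls and 5.51% of the higher ones. Below, a gene is called apart in both diets when its fasted and fed libraries did not overlap in HFD or in Ensure.

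Each diet alone, fitted over the same 19 libraries, called fewer genes. HFD called 30 higher (0.187%) and 165 lower (1.03%), and Ensure called 1690 higher (10.6%) and 1565 lower (9.77%). Of the genes called by the shared effect, 1912 of 1925 higher and 1916 of 1926 lower had the same sign in both diets. The median log2 fold change of the higher genes was 0.63 over both diets, 0.47 in HFD and 0.73 in Ensure, and that of the lower genes was -0.39, -0.32 and -0.45. The Ensure value was the larger for 80.2% of the higher and 74.1% of the lower genes. For the difference between the diets' responses, edgeR called 0 genes, with 1234 genes (7.71%) at an unadjusted p under 0.05 and a smallest adjusted p of 0.302. DESeq2 called 65 genes for that difference and limma voom with library quality weights 1170, so equal responses of the diets are not shown.

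**Figure D1:**
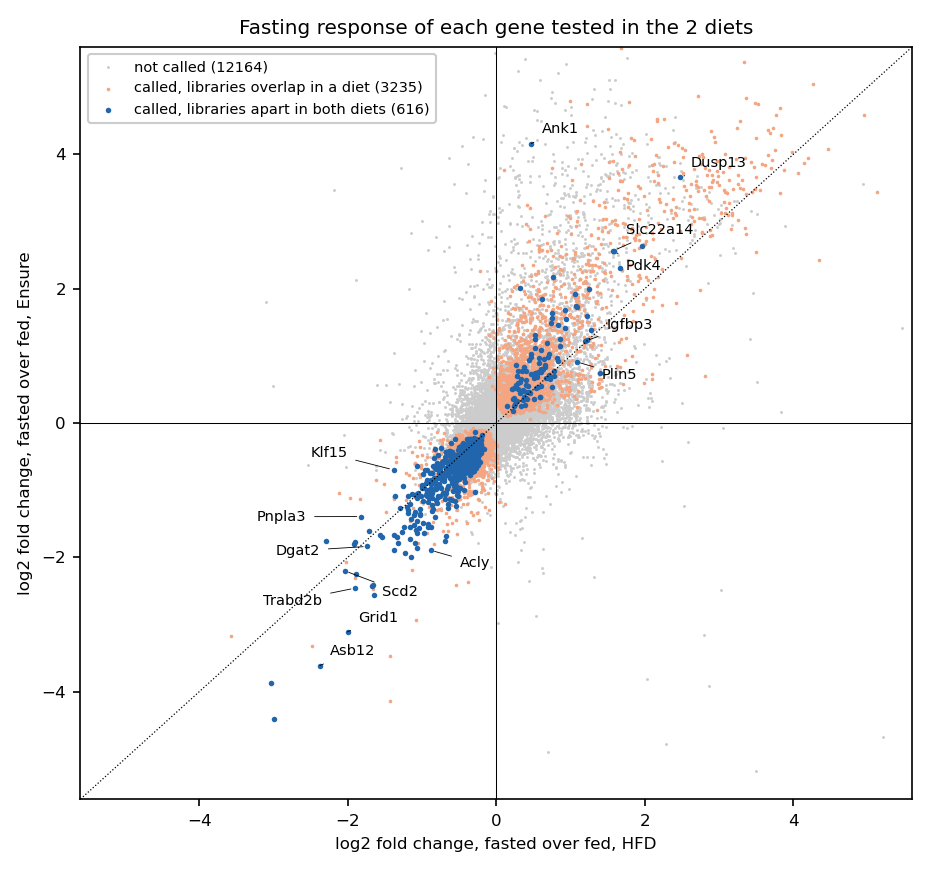
Log2 fold change of fasted over fed libraries in HFD (horizontal axis) and in Ensure (vertical axis), 1 point per gene tested. Grey points are the 12164 genes not called by the shared effect, orange points the 3235 called genes whose libraries overlap in a diet and blue points the 616 apart in both diets, and the dotted line marks equal responses. The blue points are mostly at the lower left, the largest orange values are at the upper right, and 6 genes lie outside the axes.

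The largest folds separated the libraries differently in the 2 directions. Of 257 genes that were at least 4-fold higher, 6 were apart in both diets; 142 passed the filter on low counts without the 5 tract-rich libraries, and 18 were called there. Of 18 genes that were at least 4-fold lower, 10 were apart, all 18 passed that filter and 17 were called. At 2- to 4-fold lower, 66 of 102 genes were apart and 90 were still called. Without the 5 libraries the shared effect called 851 higher and 1192 lower genes, and with lane as a term 394 and 1002. Of the genes apart in both diets, 97 of 106 higher and 500 of 510 lower kept their call without the 5 libraries, and 87 and 484 kept it with lane as a term. Over all calls, 32.4% of higher and 56.7% of lower genes kept theirs without the 5 libraries, and 20.5% and 52% with lane as a term. The apart genes were picked by their separation in these same libraries, so the share they kept is no independent check. Within lanes 5, 6 and 7, taken alone and without a test, the fasted mean differed from the fed mean by -2.11, -1.68 and -1.88 on the log2 scale for Dgat2, by 3.20, 2.77 and 1.61 for Pdk4, and by 0.68, 1.76 and 1.29 for Igfbp3. Lane 5 held 1 fed library, lane 6 held 1 fasted library, and lane 7 held Ensure fed 18 beside the HFD libraries.

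**Figure D2:**
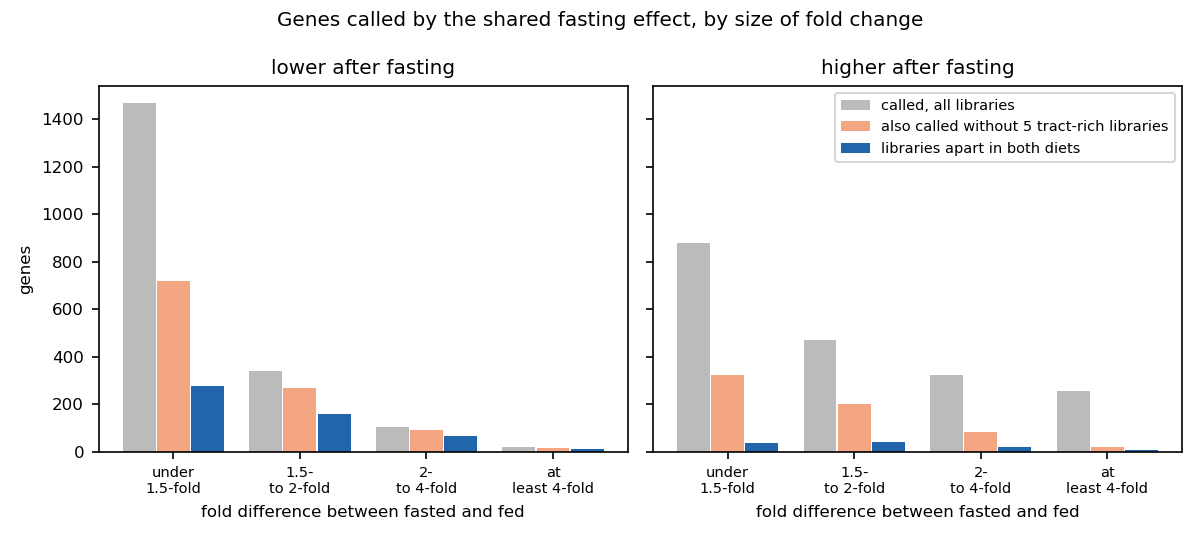
Number of genes called by the shared effect (vertical axis) by the size of the fold difference (horizontal axis), lower genes on the left and higher genes on the right. Grey bars are all calls, orange bars those also called without the 5 tract-rich libraries (genes that no longer pass the filter count as not called) and blue bars those apart in both diets; at 4-fold or more the grey bar stands at 257 for higher genes and 18 for lower ones, and the orange bars at 18 and 17.

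Genes of lipid synthesis were 5 of the 12 leading lower genes. By the naming rule, the 12 with the largest fold among named genes apart in both diets and averaging at least 1 CPM were Asb12, Grid1, Trabd2b, Tuba1a, Scd2, Paqr9, Mogat2, Mir6392, Dgat2, Acss2, Odf3l1 and Agpat2. Of these, Scd2 desaturates fatty acids, Acss2 makes acetyl-CoA from acetate, Agpat2 and Mogat2 add fatty acids to glycerol backbones, and Dgat2 makes the final step to triglyceride. Asb12, a gene of the ankyrin and SOCS box family, had the largest fold. Its level was 0.812 to 2 CPM (median 1.04) in HFD fed and 0.0548, 0.254, 0.299 and 0.304 CPM in HFD fasted libraries. In Ensure it was 2.09 to 4.62 CPM (median 2.96) fed and 0.1, 0.181, 0.198, 0.254 and 0.56 CPM fasted. The log2 fold change was -3.08 ± 0.38 (SE; adjusted p = 3.32e-05), and the fasted values were near the 0.133 to 0.234 CPM that 3 counts make in these libraries.

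Other genes in the same group were more abundant, and the naming rule itself requires libraries apart in both diets. Tuba1a, an alpha-tubulin, read 333, 371, 569 and 1150 CPM in HFD fed and 155, 202, 206 and 210 CPM in HFD fasted libraries. Its Ensure levels were 1230 to 1630 CPM (median 1530) fed and 124, 242, 244, 301 and 333 CPM fasted, for a log2 fold change of -2.18 ± 0.25 (adjusted p = 1.95e-05). Trabd2b, a membrane metalloprotease that acts on Wnt proteins, went from 60.5 to 195 CPM over all fed libraries to 13.7 to 37.5 CPM over all fasted ones, so that the groups did not overlap even across diets (log2 fold change -2.22 ± 0.19, adjusted p = 2.7e-06). Grid1, a glutamate receptor family member, also kept that separation, at 6 to 16.8 CPM fed and 0.71 to 2.95 CPM fasted (-2.63 ± 0.28, adjusted p = 1.5e-05). Mir6392 is counted at a microRNA gene that lies within Pnpla3 in the later mouse annotation, and libraries of poly-adenylated RNA do not measure the mature microRNA. Its fall (-1.82 ± 0.21) sits beside that of Pnpla3 itself (-1.57 ± 0.17), and the reads of such overlapping genes are uncertain.

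**Figure D3:**
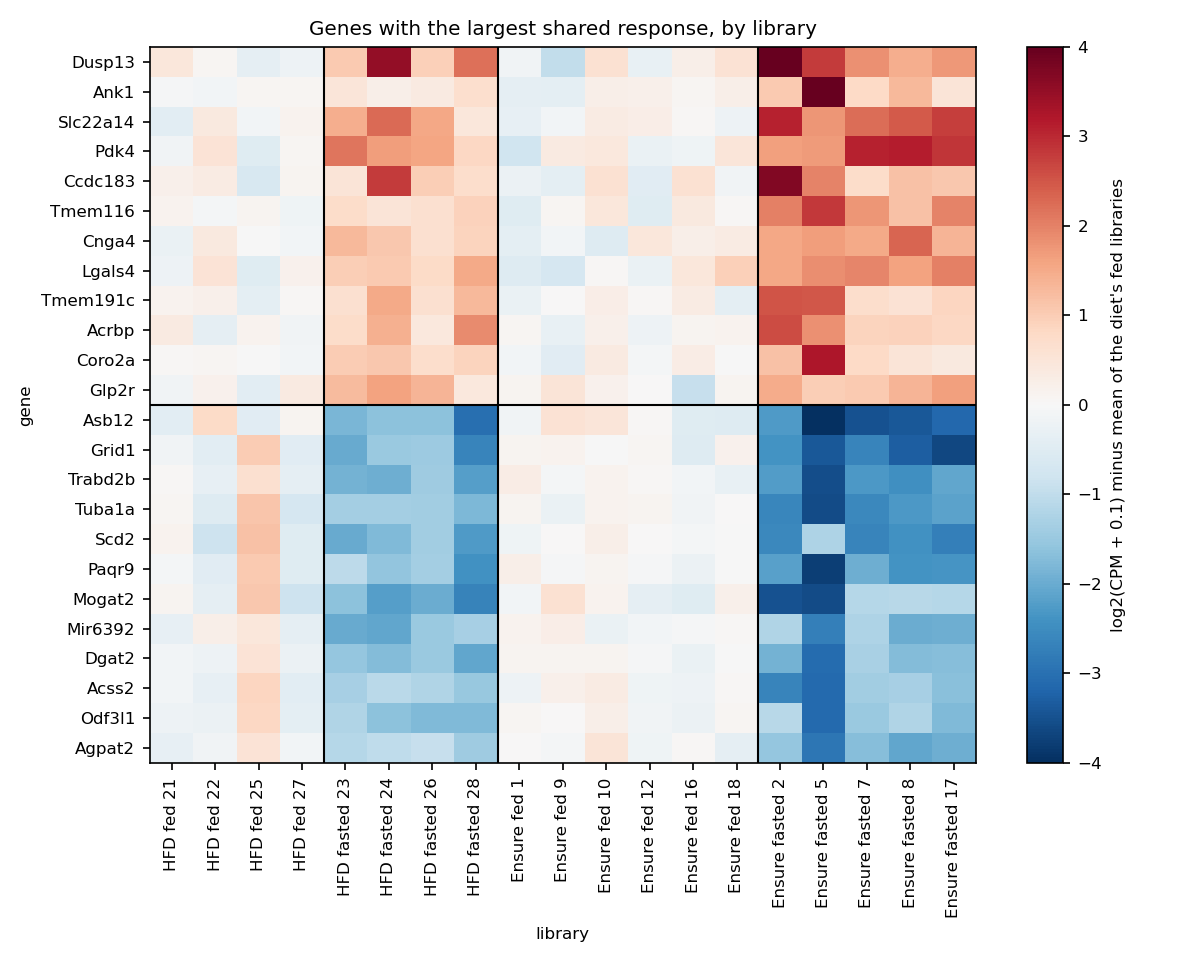
Level of the 12 higher (top) and 12 lower (bottom) genes with the largest shared fold change in each of the 19 libraries, as log2(CPM + 0.1) minus the mean of the fed libraries of the same diet, with red above and blue below. The fasted columns of both diets are red at the top and blue at the bottom; Ensure fasted 5 holds the extreme values of Ank1 (122 CPM) and Coro2a (220 CPM).

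Fatty acid synthesis genes were lower far more than higher. Of 21 listed genes, 10 were lower and 1 higher, with a median log2 fold change of -0.65 against 0.10 for all genes tested, and 9 of the 10 lower genes were apart in both diets. Fasn, the fatty acid synthase, read 1720, 2220, 2470 and 4200 CPM in HFD fed and 516, 849, 1060 and 1230 CPM in HFD fasted libraries. In Ensure it read 7010 to 11300 CPM (median 9270) fed and 1250, 1620, 3640, 3780 and 3860 CPM fasted. Fed and fasted libraries did not overlap in either diet, although HFD fed and Ensure fasted libraries overlapped (log2 fold change -1.63 ± 0.24, adjusted p = 0.000158). Acly, which makes cytosolic acetyl-CoA from citrate, went from 252, 260, 301 and 454 to 121, 182, 189 and 195 CPM in HFD. Ensure fed libraries held 920 to 1530 CPM (median 1130), against 213, 318, 321, 334 and 361 CPM in fasted ones (-1.47 ± 0.19, adjusted p = 5.12e-05).

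Scd2 gave the largest fall on this list. It read 353, 442, 690 and 1390 CPM in HFD fed and 130, 153, 182 and 235 CPM in HFD fasted libraries. The Ensure levels were 1670 to 2210 CPM (median 1880) fed and 280, 301, 316, 355 and 802 CPM fasted, with Ensure fasted 5 the highest of the fasted values (-2.13 ± 0.25, adjusted p = 2.28e-05). Scd1, the related desaturase that is abundant in fat, was not called (-0.05 ± 0.22, adjusted p = 0.885). Acaca, the carboxylase that commits acetyl-CoA to fatty acids, narrowly missed the call (-0.65 ± 0.24, adjusted p = 0.0565) and was called at 7 of 30 alternative settings. Acss2 (-1.67 ± 0.23) and Aacs, which activates acetoacetate for lipid synthesis (-0.74 ± 0.12), were lower, as were the transcription factor genes Srebf1 (-0.55 ± 0.10, adjusted p = 0.000729) and Mlxipl, which encodes ChREBP (-0.58 ± 0.11, adjusted p = 0.000869). Srebf1 read 299 to 540 CPM in fed and 156 to 328 CPM in fasted libraries, so the groups overlapped across the diets but not within either. The 1 higher member, Acacb, encodes the mitochondrial carboxylase whose product restrains fatty acid oxidation, and 0 members were called higher by edgeR with lane as a term or without the 5 tract-rich libraries. Among 7 genes of the pentose phosphate pathway, a source of NADPH, 3 were lower and 0 higher by edgeR (median -0.30): Rpe (-0.97 ± 0.12, adjusted p = 2.75e-05), Pgd (-0.71 ± 0.17) and Rpia (-0.30 ± 0.09). With lane as a term or without the 5 tract-rich libraries, 1 of the 7 was called.

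Cholesterol synthesis genes were lower too. Of 24 genes tested, 15 were lower and 0 higher, with a median of -0.80. Hmgcs1, also on the list, did not pass the filter on low counts. The 5 apart in both diets carry steps from mevalonate to cholesterol: Mvk, Pmvk, Idi1, Lss and Sc5d. Lss, which closes the sterol ring, read 36.2, 38.8, 51.3 and 87.4 CPM in HFD fed and 24, 25.2, 27.3 and 28.7 CPM in HFD fasted libraries. Ensure gave 78.3 to 115 CPM (median 89.1) fed and 26.9, 30.9, 34.9, 42.3 and 44.3 CPM fasted, a log2 fold change of -1.22 ± 0.15 (adjusted p = 3.3e-05). Mvk, the mevalonate kinase, read 23.1, 24.9, 28.3 and 43.9 and 15, 16.5, 16.7 and 16.8 CPM in HFD, and 37.3 to 55.2 CPM (median 42.7) fed and 19, 21.1, 21.2, 22.2 and 22.3 CPM fasted in Ensure (-0.99 ± 0.11, adjusted p = 1.54e-05). For Mvk no fasted library of either diet reached the lowest fed one, while for Lss the Ensure fasted and HFD fed ranges overlapped. Pmvk (-1.26 ± 0.14), Idi1 (-1.25 ± 0.16) and Sc5d (-1.22 ± 0.15) had adjusted p from 1.95e-05 to 5.02e-05. Srebf2, the sterol-sensing transcription factor gene, was at 0.08 and not called.

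Promoters of the 5 cholesterol synthesis genes apart in both diets are shown because these genes fell together and because SREBP is known to act beside the CCAAT-binding factor NF-Y. RefSeq promoters on GRCm38.p6 matched 12581 of the 16015 genes tested by symbol, and the first listed was used where a gene had several. The 250 bases before the start are printed 5′ to 3′ on the gene's strand, with the letters CCAAT, or ATTGG where the motif is on the other strand, and the E-box CACGTG in capitals.
Lss, chr10:76531355-76531604, plus strand: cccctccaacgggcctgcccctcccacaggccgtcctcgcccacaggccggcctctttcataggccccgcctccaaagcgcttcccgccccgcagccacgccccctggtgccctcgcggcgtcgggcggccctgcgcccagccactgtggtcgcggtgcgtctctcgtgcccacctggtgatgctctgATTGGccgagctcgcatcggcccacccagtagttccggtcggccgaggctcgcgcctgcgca
Mvk, chr5:114444019-114444268, plus strand: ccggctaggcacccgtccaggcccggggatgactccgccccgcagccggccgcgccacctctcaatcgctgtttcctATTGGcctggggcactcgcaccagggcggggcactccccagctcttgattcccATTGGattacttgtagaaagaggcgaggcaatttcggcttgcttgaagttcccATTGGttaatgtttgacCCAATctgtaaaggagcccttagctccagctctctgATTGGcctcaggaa
Idi1, chr13:8885356-8885605, plus strand: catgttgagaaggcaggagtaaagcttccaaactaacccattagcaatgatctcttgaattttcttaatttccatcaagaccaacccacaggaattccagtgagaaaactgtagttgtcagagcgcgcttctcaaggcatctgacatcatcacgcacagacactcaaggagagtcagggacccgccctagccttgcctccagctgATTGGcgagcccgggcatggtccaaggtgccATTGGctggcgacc
Sc5d, chr9:42264301-42264550, minus strand: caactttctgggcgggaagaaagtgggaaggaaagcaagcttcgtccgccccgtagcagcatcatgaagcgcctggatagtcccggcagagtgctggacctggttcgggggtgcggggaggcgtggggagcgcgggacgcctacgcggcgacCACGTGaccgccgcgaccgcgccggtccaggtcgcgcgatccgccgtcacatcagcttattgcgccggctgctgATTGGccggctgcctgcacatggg
Pmvk, chr3:89454291-89454540, plus strand: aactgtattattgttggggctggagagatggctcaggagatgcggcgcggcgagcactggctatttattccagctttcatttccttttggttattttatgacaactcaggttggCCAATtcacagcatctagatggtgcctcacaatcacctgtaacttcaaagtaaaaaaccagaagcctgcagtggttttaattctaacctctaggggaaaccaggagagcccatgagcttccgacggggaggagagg
The letters CCAAT, searched on both strands, stood in 14 of the 16 cholesterol-list promoters matched (87.5%) and in 35.8% of all promoters matched. They were in 7 of 17 promoters of the fatty acid synthesis list (41.2%) and in 4 of 14 of the triglyceride synthesis list (28.6%). Over all called genes the shares were 40.0% for lower and 34.6% for higher genes, and 43.5% for the lower genes apart in both diets. The E-box CACGTG was in 3 of the 16 (18.8%) against 8.01% of all promoters. The FoxO motif GTAAACA was in 2.1% of promoters of higher genes, 2.43% of lower genes and 2.27% of all, and the CRE TGACGTCA in 3.09%, 3.02% and 2.51%. The sterol regulatory element known from the LDL receptor promoter was in 4 of 12581 promoters (0.0318%), the direct repeat bound by PPAR in 9 (0.0715%) and the palindromic glucocorticoid response element in 0. List promoters were counted whether or not their gene was called, and a link between these letters and the fall was not tested. A match in these windows is a description of letters, and other motifs can overlap it.

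Triglyceride assembly showed a cluster of large falls among genes with little change. Of 19 genes, 8 were lower and 2 higher, with a median of -0.30, and 5 of the lower ones were apart in both diets. Dgat2 read 2240, 2310, 2490 and 3890 CPM in HFD fed and 633, 791, 903 and 954 CPM in HFD fasted libraries. In Ensure it read 3930 to 5100 CPM (median 4870) fed and 562, 1260, 1410, 1440 and 1930 CPM fasted, and no fasted library of either diet reached the lowest fed one (-1.79 ± 0.18, adjusted p = 7.78e-06). Pnpla3, a droplet protein with acyltransferase and lipase activity, read 281, 333, 421 and 472 and 74, 103, 114 and 136 CPM in HFD, and 959 to 1110 CPM (median 1030) fed and 186, 358, 396, 473 and 547 CPM fasted in Ensure (-1.57 ± 0.17, adjusted p = 1.5e-05). Agpat2, whose loss causes lipodystrophy, fell from 280 to 1100 CPM in fed to 104 to 260 CPM in fasted libraries (-1.64 ± 0.19). Mogat2 (-1.97 ± 0.34) and Gpd1, which makes glycerol phosphate from glucose (-0.90 ± 0.19), also fell. Lpin1, Agpat1 and Agpat3 were between -0.30 and 0.08 and not called. The calls of both higher members changed with the setting. Pck1, the enzyme of glyceroneogenesis, was higher by 1.02 ± 0.35 (adjusted p = 0.0422) but was called at 12 of 30 alternative settings, and Gpat2, known from testis, was at 2.44 with all libraries and 1.15 (adjusted p = 0.16) without the 5 tract-rich ones.

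Lipolysis genes did not move as a group. Of 22 genes of lipolysis and lipid droplets, 5 were lower and 1 higher (median -0.04), beside 12% of all genes tested in each direction. Plin5, which ties droplets to mitochondria, was the higher one. It read 11.4, 12.6, 13.4 and 13.5 CPM in HFD fed and 15.4, 22, 28.4 and 42 CPM in HFD fasted libraries, and 11.7 to 18.4 CPM (median 15.3) fed and 22.9, 25.6, 25.7, 32.9 and 36.6 CPM fasted in Ensure. The groups did not overlap in either diet (0.98 ± 0.15, adjusted p = 0.000234). Pnpla2, the adipose triglyceride lipase, was not called (0.31 ± 0.19, adjusted p = 0.222), nor was Lipe, the hormone-sensitive lipase (-0.30 ± 0.15, adjusted p = 0.142). Abhd5, the activator of that first lipase, fell (-0.62 ± 0.12, adjusted p = 0.00138), as did the beta-3 adrenergic receptor gene Adrb3 (-0.95 ± 0.26, adjusted p = 0.0138). The hormone-sensitive lipase is largely switched by phosphorylation, which counts of RNA do not measure. With lane as a term 1 of the 22 was lower, and without the 5 tract-rich libraries 2 were.

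Uptake of fatty acids changed at single genes. Of 18 genes, 4 were lower and 1 higher (median -0.03), beside 12% of all genes tested in each direction. Gm6484, the older symbol of Angptl8, an insulin-induced inhibitor of lipoprotein lipase, had the largest fall: 3.3, 3.94, 5.26 and 12.8 CPM in HFD fed and 1.52, 1.96, 2.03 and 2.48 in HFD fasted libraries. Ensure libraries held 20.9 to 42.2 CPM (median 25.1) fed and 2.1, 4.1, 5.53, 6.13 and 9.08 CPM fasted (-2.10 ± 0.29, adjusted p = 0.000108). Lpl itself (-0.30 ± 0.16, adjusted p = 0.172) and Angptl4, the inhibitor usually tied to fasting (-0.17 ± 0.15, adjusted p = 0.403), were not called. Slc27a1, a fatty acid transport protein, rose (1.08 ± 0.17, adjusted p = 0.000224), and its relative Slc27a4 fell (-0.34 ± 0.11, adjusted p = 0.0302; 0.079 with lane as a term). With lane as a term 1 of the 18 was lower and 1 higher, and without the 5 tract-rich libraries 3 and 1.

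**Figure D4:**
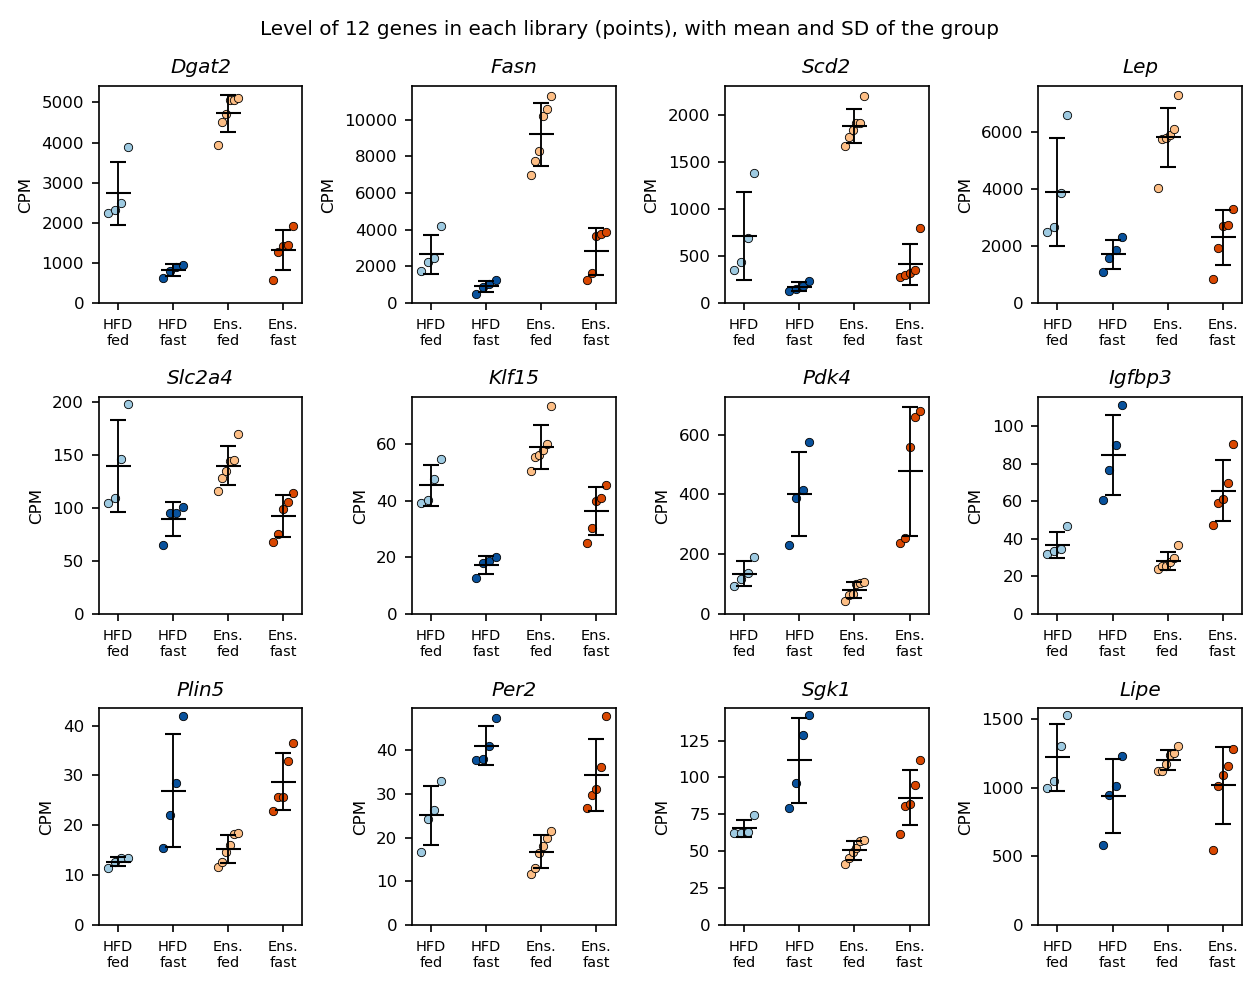
CPM of 12 genes in each library (points) of the 4 groups, with the group's mean as a horizontal bar and its SD as whiskers; every vertical axis starts at 0. Fasted points lie below fed points within each diet for Dgat2, Fasn, Scd2, Lep, Slc2a4 and Klf15 and above them for Pdk4, Igfbp3, Plin5, Per2 and Sgk1, while those of Lipe overlap.

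The rise of Pdk4 was the clearest among metabolic genes. This kinase blocks pyruvate dehydrogenase and so spares glucose. It read 93.7, 117, 137 and 192 CPM in HFD fed and 232, 387, 416 and 575 CPM in HFD fasted libraries. The Ensure levels were 44 to 107 CPM (median 83.7) fed and 239, 254, 559, 657 and 678 CPM fasted, and every fasted library of either diet was above every fed one (2.15 ± 0.27, adjusted p = 4e-05). Of 29 genes of fatty acid oxidation and PPAR targets, 5 were higher and 5 lower (median -0.04), beside 12% of all genes tested in each direction. Among the higher ones were Pdk4, Vnn1, Fgf21 and Ucp2, of which none carries out beta-oxidation. Vnn1, a pantetheinase, overlapped in HFD but not in Ensure: 6.85 to 35.7 and 26.8 to 99.4 CPM in HFD fed and fasted libraries, and 3.44 to 6.93 and 34.8 to 62.2 CPM in Ensure (2.47 ± 0.36, adjusted p = 0.000161). Fgf21, a fasting hormone of liver, rose by 1.17 ± 0.33 on the log2 scale (adjusted p = 0.0183; 0.051 without the 5 tract-rich libraries). The lower ones act within beta-oxidation or its entry, among them Cpt2 (-0.48 ± 0.10, adjusted p = 0.00303). A split of the calls by function was not tested. Cpt1a, which admits fatty acids to mitochondria, was not called (0.08 ± 0.08, adjusted p = 0.503). With lane as a term 3 of the 29 were higher and 1 lower, and without the 5 tract-rich libraries 4 and 2.

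Pyruvate oxidation and the citric acid cycle were lower in enzymes and higher in regulators of entry. Of 27 genes, 14 were lower and 4 higher (median -0.25), with 9 of the lower ones apart in both diets. Cs, the citrate synthase, read 373, 416, 456 and 469 CPM in HFD fed and 275, 276, 295 and 304 CPM in HFD fasted libraries. The Ensure libraries read 556 to 655 CPM (median 586) fed and 242, 304, 353, 363 and 392 CPM fasted (-0.73 ± 0.08, adjusted p = 2.09e-05). The pyruvate dehydrogenase subunits Pdhb (-0.76 ± 0.12, adjusted p = 0.000259) and Dlat (-0.69 ± 0.11, adjusted p = 0.000283) fell too. The 4 higher members were 3 kinases that inhibit pyruvate dehydrogenase (Pdk4, Pdk2 and Pdk1) and the phosphatase Pdp1. Counts were 12 lower and 3 higher both with lane as a term and without the 5 tract-rich libraries.

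Smaller falls ran through the mitochondrial genes around the cycle. Of 48 genes of oxidative phosphorylation, 18 were lower and 0 higher by edgeR (median -0.18), and the steepest was Ndufb3 (-0.54 ± 0.10, adjusted p = 0.00101). Uqcrc2, a subunit of complex III, was lower by 0.45 on that scale with the smallest p of the list (adjusted p = 6.91e-05), and Ndufs1, Sdhd and Cyc1 were apart in both diets as well. The count was 8 with lane as a term and 10 without the 5 tract-rich libraries. Breakdown of branched-chain amino acids had 7 lower and 0 higher of 22 (median -0.20), with Bcat2, the first step (-0.51 ± 0.12), Dbt (-0.58 ± 0.14), Mccc2 (-0.53 ± 0.11) and Acat1 (-0.43 ± 0.10) apart in both diets. Here the count was 3 with lane as a term and 4 without the 5 libraries.

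**Figure D5:**
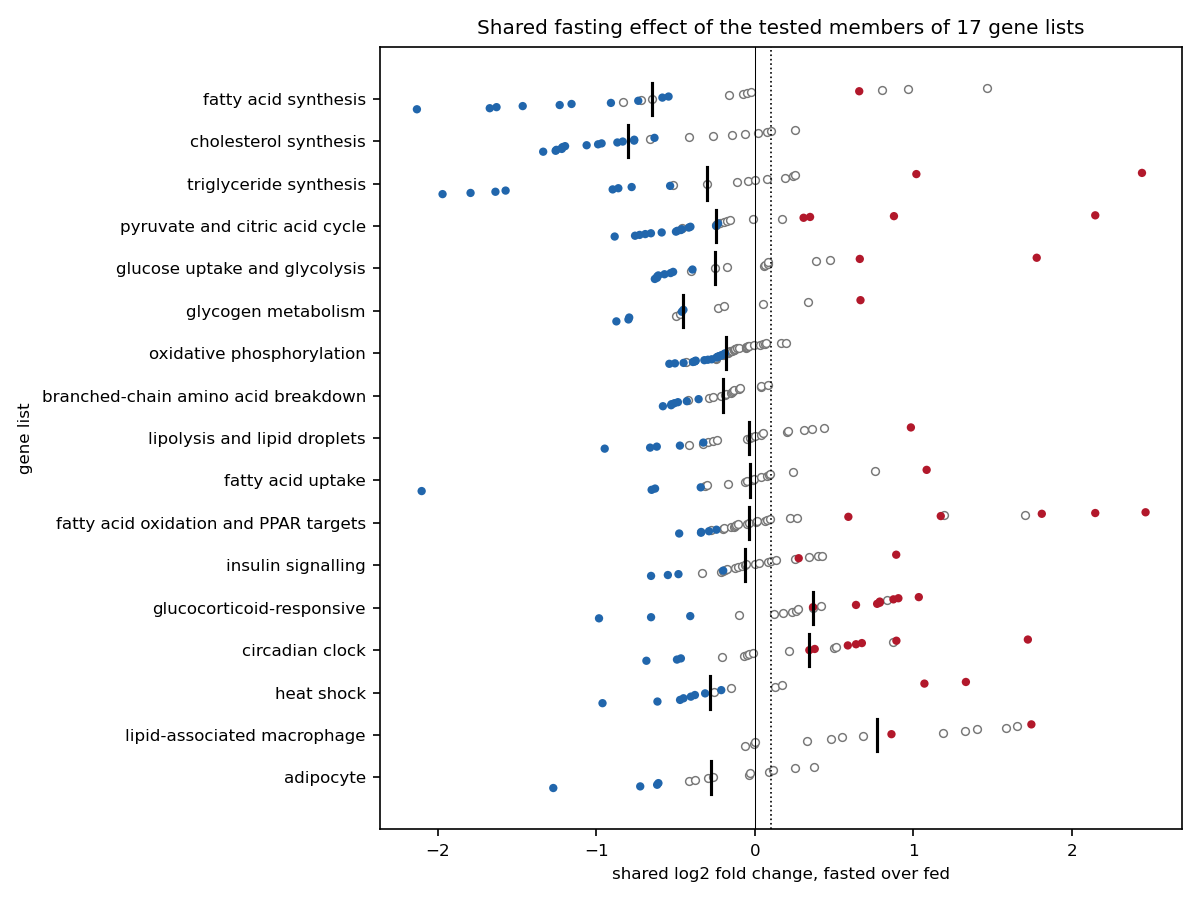
Shared log2 fold change of every tested gene (points) of 17 lists (rows), filled blue where called lower, filled red where called higher and open where not called, with the median of the list as a thick bar and that of all genes tested as a dotted line. Values below -1 lie in the rows for synthesis of fatty acids, cholesterol and triglyceride, except for Gm6484 (-2.10) under fatty acid uptake and Lep (-1.27) under adipocyte, and the medians of the glucocorticoid-responsive, clock and lipid-associated macrophage rows lie to the right of the dotted line.

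Glucose transport and phosphorylation genes were among those that fell. Of 19 genes of glucose uptake and glycolysis, 8 were lower and 2 higher (median -0.25). Slc2a4, the insulin-responsive transporter GLUT4, read 105, 109, 146 and 198 CPM in HFD fed and 65.4, 95.1, 95.3 and 101 CPM in HFD fasted libraries, and 116 to 170 CPM (median 140) fed and 67.8, 75.3, 99.1, 106 and 114 CPM fasted in Ensure. Each diet's groups were apart, though by a narrow margin (-0.62 ± 0.13, adjusted p = 0.00283). Hk2, the insulin-regulated hexokinase, was apart as well, at 86.5 to 118 and 44.6 to 64.7 CPM in HFD fed and fasted libraries and 117 to 142 and 85.2 to 111 CPM in Ensure (-0.57 ± 0.09, adjusted p = 0.00041). Ldha (-0.61 ± 0.13), Tpi1 (-0.62 ± 0.11) and Pfkfb1 (-0.53 ± 0.10) also fell. The higher members were Hk1 and Slc2a3, of which Slc2a3 is abundant in blood cells and in sperm; 0 of the 19 were called higher by edgeR with lane as a term and 1 without the 5 tract-rich libraries. Of 12 glycogen genes, 5 were lower and 1 higher (median -0.46): the synthase Gys1 (-0.80 ± 0.13, adjusted p = 0.000323), the branching enzyme Gbe1 (-0.79 ± 0.15), the targeting subunit Ppp1r3d (-0.87 ± 0.12) and Gyg were among the lower, and Stbd1 was higher (0.67 ± 0.15, adjusted p = 0.00521; 0.075 without the 5 libraries).

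Insulin signalling genes were mostly not called. Of 25, 4 were lower and 2 higher (median -0.06), beside 12% of all genes tested in each direction. The kinase subunit gene Pik3r1 fell (-0.66 ± 0.10, adjusted p = 0.000169), as did Tbc1d4, which holds GLUT4 inside the cell until insulin acts (-0.48 ± 0.10, adjusted p = 0.00217), and Trib3, an inhibitor of Akt, rose (0.89 ± 0.16, adjusted p = 0.000999). With lane as a term, and likewise without the 5 libraries, 2 of the 25 were lower and 1 higher. Irs2 was not called (0.42 ± 0.22, adjusted p = 0.16). Among 16 FoxO targets 4 were higher and 2 lower (median 0.22), beside the same 12%. Txnip, which limits glucose uptake, rose (0.69 ± 0.15, adjusted p = 0.00353), as did Gabarapl1 (0.41 ± 0.10) and Fbxo32, while Cdkn1a fell (-1.01 ± 0.21, adjusted p = 0.00195). Lane as a term left 2 of the 16 higher, and Gabarapl1 was not called (adjusted p = 0.0575).

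Klf15, a transcription factor that glucocorticoids raise in several tissues, fell with the lipid genes. It read 39.2, 40.4, 47.6 and 54.7 CPM in HFD fed and 12.7, 18.2, 18.7 and 20 CPM in HFD fasted libraries. Ensure levels were 50.5 to 73.7 CPM (median 57.2) fed and 25.1, 30.4, 40.1, 40.9 and 45.5 CPM fasted (-0.98 ± 0.14, adjusted p = 0.000134). It was 1 of 3 lower members of its list: of 20 glucocorticoid-responsive genes, 8 were higher, 3 lower and 9 not called (median 0.37). Sgk1, a kinase induced by glucocorticoids, was apart in both diets in the upward direction. Its levels were 62.2, 62.5, 62.7 and 74.3 CPM in HFD fed and 79.5, 96.4, 129 and 142 CPM in HFD fasted libraries, and 41.6 to 57.5 CPM (median 50.9) fed and 61.9, 80.3, 82, 94.9 and 112 CPM fasted in Ensure (0.77 ± 0.11, adjusted p = 0.000169). Mt1, a metallothionein, rose as well (0.91 ± 0.18, adjusted p = 0.00175).

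Fkbp5, a widely used glucocorticoid marker, was called by the shared effect with its libraries apart in Ensure alone. It read 50.1, 51.8, 56.2 and 75 CPM in HFD fed and 38.2, 45.2, 66.9 and 84.8 CPM in HFD fasted libraries, with full overlap. The Ensure libraries were apart, at 60.4 to 87.9 CPM (median 75.4) fed and 130, 149, 171, 183 and 309 CPM fasted. The log2 fold change was 0.79 ± 0.23 over both diets (adjusted p = 0.0187), 0.01 in HFD and 1.34 in Ensure, and the difference between the diets had an adjusted p of 0.383. It was lost without the 5 tract-rich libraries (0.45, adjusted p = 0.195) and with lane as a term (0.50, adjusted p = 0.237). The list's median was 0.01 in HFD and 0.64 in Ensure. Lane as a term left 4 of the 20 higher and 2 lower, and leaving out the 5 libraries left 6 and 2.

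Clock genes changed on both arms of the loop. Of 19, 7 were higher and 3 lower (median 0.34). Per2, a repressor of the clock, read 16.8, 24.3, 26.4 and 33.1 CPM in HFD fed and 37.8, 38, 41.1 and 47.4 CPM in HFD fasted libraries. Ensure libraries read 11.7 to 21.5 CPM (median 17.3) fed and 26.8, 29.8, 31.1, 36.1 and 47.9 CPM fasted (0.89 ± 0.14, adjusted p = 0.000312). Per1 (0.64 ± 0.13), Per3 and Ciart rose, and the activators Clock (-0.49 ± 0.06, adjusted p = 2.4e-05) and Arntl (-0.47 ± 0.11, adjusted p = 0.00486) fell. Clock was apart in both diets, at 124 to 193 CPM in fed and 88 to 133 CPM in fasted libraries. The hour of tissue collection is not in the labels, and its part in these values was not tested. Without the 5 tract-rich libraries 2 of the 19 were higher and 1 lower, and with lane as a term 3 and 3.

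Among secreted signals of fat, leptin RNA fell and adiponectin RNA was not called. Lep, which encodes leptin and falls in fasted animals, read 2480, 2650, 3840 and 6580 CPM in HFD fed and 1090, 1590, 1850 and 2310 CPM in HFD fasted libraries. The Ensure libraries held 4040 to 7270 CPM (median 5830) fed and 825, 1930, 2700, 2740 and 3300 CPM fasted, and the groups were apart in both diets (-1.27 ± 0.24, adjusted p = 0.00103). Retn, which encodes resistin, was lower by 0.61 on the log2 scale (adjusted p = 0.0272; 0.0525 without HFD fed 22), and Adipoq, which encodes adiponectin, was not called (-0.03 ± 0.18, adjusted p = 0.897). Of 13 adipokines, 2 were lower and 1 higher (median -0.09), beside 12% of all genes tested in each direction, and lane as a term left 1 lower and 0 higher. The adipocyte marker list as a whole had 4 lower and 0 higher of 14 by edgeR, with a median of -0.28. The sum of those 14 markers had medians of 29500 and 26300 CPM in HFD fed and fasted libraries and 30250 and 29200 CPM in Ensure, with overlap in both diets, and its part in the gene values was not tested.

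The IGF axis changed in opposite directions at its members. Igfbp3, the main carrier of IGF-1 in blood, read 31.7, 33.4, 34.7 and 46.9 CPM in HFD fed and 60.5, 76.8, 89.6 and 111 CPM in HFD fasted libraries. On Ensure it read 23.8 to 36.5 CPM (median 26.7) fed and 47.4, 59.1, 60.9, 69.8 and 90.6 CPM fasted, with every fasted library of either diet above every fed one (1.21 ± 0.13, adjusted p = 1.38e-05). Igfbp5, another binding protein, fell from 715 to 845 CPM in fed to 257 to 626 CPM in fasted libraries (-0.73 ± 0.12, adjusted p = 0.000538). Igf1 was lower over both diets (-0.65 ± 0.18, adjusted p = 0.0147), with overlap in HFD, where HFD fasted 28 held the highest value at 404 CPM, and it was lost without the 5 tract-rich libraries (-0.46, adjusted p = 0.0915) and with lane as a term (-0.55, adjusted p = 0.106). Igfals, a partner of Igfbp3 in the circulating complex, fell (-1.09 ± 0.24, adjusted p = 0.00376). In all, 3 of 12 were lower and 2 higher, beside 12% of all genes tested in each direction. The median was 0.23, and -0.20 without the 5 libraries.

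Regulators of fat cell identity moved little. Of 17 adipogenic transcription factors, 4 were lower and 2 higher (median -0.20), beside 12% of all genes tested in each direction. Klf15, Mlxipl, Stat5a (-0.32 ± 0.06, adjusted p = 0.00146) and Rxra were lower, while Pparg (-0.38) and Cebpa (-0.35) were not called. The higher ones, Cebpd and Klf4, were called at 14 and 8 of 30 alternative settings. Of 12 thermogenic genes, 4 were lower and 0 higher by edgeR (median -0.52), among them the proton channel Otop1 (-2.12 ± 0.42, adjusted p = 0.00165) and the potassium channel Kcnk3 (-0.67 ± 0.14, adjusted p = 0.00193). Otop1 overlapped in HFD, at 4.2 to 33.8 CPM fed and 1.56 to 8.22 CPM fasted. Lane as a term left 2 of the 12 lower, and leaving out the 5 tract-rich libraries left 3. Ucp1, which makes brown fat produce heat, was not called (-1.26 ± 1.13, adjusted p = 0.417).

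Among stress genes, the heat shock list had the most calls. Of 14 heat shock genes, 8 were lower and 2 higher (median -0.29). Serpinh1, the collagen chaperone (-0.96 ± 0.16, adjusted p = 0.000492), and Hspd1, a mitochondrial chaperone (-0.62 ± 0.09, adjusted p = 0.000155), were apart in both diets. The inducible Hspa1a was at 1.33 with all libraries and 0.73 without Ensure fasted 5, called both ways, and its call was lost with lane as a term (0.90, adjusted p = 0.167). On that list lane as a term left 4 lower and 0 higher. Of 21 genes of the amino acid stress response, 3 were higher and 1 lower (median 0.11), beside 12% of all genes tested in each direction: Chac1 (1.08 ± 0.18, adjusted p = 0.000421), Gdf15 (1.98 ± 0.42, adjusted p = 0.00303) and Trib3 rose. Translation genes changed little in size. Of 37 ribosomal protein genes, 5 were higher and 0 lower by edgeR (median 0.18), none of them called with lane as a term or without the 5 tract-rich libraries, and near-identical copies make such counts uncertain. Of 20 ribosome biogenesis genes, 5 were lower and 2 higher (median -0.11), with Bop1 the clearest (-0.50 ± 0.07, adjusted p = 0.000181), and Ubtf, a factor for transcription of ribosomal RNA, higher (0.21 ± 0.04) and apart in both diets. Of 30 autophagy genes, 4 were lower and 1, Gabarapl1, higher (median -0.05); with lane as a term 0 were called by edgeR in either direction, and without the 5 libraries 3 were higher and 2 lower. Of 18 ER folding genes, 2 were higher and 1 lower, and of 17 immediate-early genes 2, Jun (0.33 ± 0.11) and Jund (0.48 ± 0.10), were higher and 0 lower. Of 20 cell cycle genes, 0 were called by edgeR (median -0.03). All these counts stand beside the same 12% of all genes tested in each direction. The calls among ribosomal protein, autophagy, ER folding and immediate-early genes were near or below that share.

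The largest rises apart in both diets included genes of low level and others, such as Pdk4, of higher level. The 12 named by the rule were Dusp13, Ank1, Slc22a14, Pdk4, Ccdc183, Tmem116, Cnga4, Lgals4, Tmem191c, Acrbp, Coro2a and Glp2r. Dusp13, a phosphatase known from testis and muscle, read 0.406, 0.465, 0.578 and 0.787 CPM in HFD fed and 1.15, 1.22, 2.85 and 7.34 CPM in HFD fasted libraries. In Ensure it read 0.0513 to 0.359 CPM (median 0.217) fed and 0.725, 0.913, 0.964, 2 and 9.94 CPM fasted. The highest value of each diet was in a tract-rich library, HFD fasted 24 and Ensure fasted 2, and the log2 fold change went from 3.14 ± 0.56 (adjusted p = 0.00073) to 1.79 (adjusted p = 0.00565) without the 5 of them. Acrbp, a sperm protein, went from 1.44 ± 0.24 to 0.99 (adjusted p = 0.0073), Ccdc183 from 2.04 ± 0.44 to 0.93 (adjusted p = 0.0304) and Tmem191c from 1.46 ± 0.27 to 0.84 (adjusted p = 0.00773).

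A single library set the size of the change in Ank1 and Coro2a. Ank1, an ankyrin of red cell and muscle membranes, read 2.26, 2.36, 2.59 and 2.6 CPM in HFD fed and 2.91, 3.2, 3.5 and 4 CPM in HFD fasted libraries. Ensure libraries held 1.08 to 1.74 CPM (median 1.61) fed and 2.13, 2.59, 3.15, 3.76 and 122 CPM fasted, the last being Ensure fasted 5. The log2 fold change was 2.71 ± 0.87 with it (adjusted p = 0.032) and 0.73 without it (adjusted p = 0.00322), and leaving out any 1 of the Ensure fed libraries gave adjusted p from 0.0568 to 0.0633. Coro2a, an actin-binding coronin, went from 1.36 ± 0.31 to 0.81 without the same library.

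Other leading rises held their size. Slc22a14, a transporter known from sperm, read 2.15, 2.64, 3.21 and 3.78 CPM in HFD fed and 4, 8.12, 8.71 and 14.4 CPM in HFD fasted libraries. In the Ensure libraries it read 1.35 to 2.21 CPM (median 1.7) fed and 6.2, 8.49, 9.88, 12.4 and 15.5 CPM fasted (2.15 ± 0.25, adjusted p = 2.02e-05), and without the 5 tract-rich libraries the log2 fold change was 1.98. Lgals4, a galectin of gut epithelium, read 1.13 to 4.05 CPM over all fed and 4.78 to 8.16 CPM over all fasted libraries (1.46 ± 0.22, adjusted p = 0.000216; 1.39 without the 5). Cnga4, a subunit of cyclic nucleotide-gated channels, was 1.55 ± 0.23 and 1.48, and Glp2r, the receptor of a gut peptide, 1.34 ± 0.22 and 1.27.

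Markers of other cells gave few calls, beside 12% of all genes tested in each direction. Of 14 markers of lipid-associated macrophages, which gather around dying fat cells, 2 were higher and 0 lower by edgeR (median 0.77). Their summed level ranged from 9980 to 12600 CPM in HFD fed and 8320 to 32200 CPM in HFD fasted libraries, and from 7660 to 9170 CPM and 3810 to 12400 CPM in Ensure. Spp1 (1.74 ± 0.60, adjusted p = 0.0413) was lost without HFD fasted 28 (adjusted p = 0.139) or without Ensure fasted 8 (0.18), and Cd9 was 0.86 ± 0.27 with all libraries and 0.44 without HFD fasted 28. Without the 5 tract-rich libraries 8 of the 14 were higher (median 1.00), and with lane as a term 0. Of the other markers, the macrophage list had 1 higher (Mertk) of 13, the stromal progenitor list 3 of 12 (Pdgfra, Dpp4 and Ly6a), the mesothelial list 2 of 7 (Wt1 and Bnc1), the smooth muscle list 1 of 10 (Synpo2) and the skeletal muscle list 1 of 7. That last one was Acta1, the actin of skeletal muscle, at 1.85 ± 0.30 (adjusted p = 0.00036) and 1.63 without the 5 libraries. The endothelial list had 1 lower (Emcn) of 12, and Emcn was not called without the 5 libraries (adjusted p = 0.262) or once lane was a term (0.243). By edgeR 0 of the neutrophil, T cell, B cell, mast cell and tract epithelium markers were called. Lane as a term left the macrophage, stromal progenitor and smooth muscle lists with 0 genes called by edgeR and the mesothelial list with 1. Without the 5 libraries they had 2, 4, 0 and 1.

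The 4 marker lists with medians above 1 had lower medians without the 5 tract-rich libraries. Those libraries were picked by the epididymis and testis markers, which include the sperm cell genes. Lower medians of these lists without the 5 therefore follow from the choice and are no independent result. For smooth muscle 1 library stood out, with a summed level of 8790 CPM in Ensure fasted 5 and 503 to 1190 CPM in every other library. Leaving out the 5 kept HFD fed 21, HFD fasted 26 and Ensure fed 16, with 454 to 569 CPM of tract epithelium markers. The smooth muscle median was 1.25 with all libraries and 0.05 without the 5, that of tract epithelium 1.73 and -0.86, that of sperm cells 3.07 and 0.84, and that of epididymis and testis 2.78 and 0.55, with 1 of 14 called (Tnp2, 3.30 ± 1.16, adjusted p = 0.0458; 0.51 without the 5). Matrix genes had 3 higher and 2 lower of 24 (median 0.13), beside 12% of all genes tested in each direction. Mmp11, a stromelysin, rose in both diets, from 37.6, 40, 42.8 and 56.2 to 60.2, 68.9, 145 and 191 CPM in HFD and from 11.3 to 14.5 CPM (median 13.3) to 14.9, 20.5, 20.9, 25.2 and 30.1 CPM in Ensure (1.03 ± 0.20, adjusted p = 0.00147). Col15a1, a basement membrane collagen, fell from 679 to 1570 CPM in fed to 355 to 896 CPM in fasted libraries, apart within each diet (-0.96 ± 0.14, adjusted p = 0.000192). Of 24 interferon-responsive genes, 3 were higher and 1 lower (median 0.35), beside the same 12%, and 0 were called by edgeR with lane as a term.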

How the data were processed

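Poly-A RNA of perigonadal fat was read in 19 libraries (RNeasy extraction, TruSeq RNA kit, HiSeq2000, per the labels' protocols). The submitters' processing notes name bcl2fastq 1.8.4, TopHat2 2.1, HTSeq 0.6.1 and the mouse build mm9. Strand, annotation and counting settings: not given in the sources used here. Overlapping genes and near-identical copies may therefore share or lose reads. The authors deposited raw, whole-number counts for 24348 gene symbols in each library. Lines that name no gene were removed before scaling. They held 13.01 to 17.32% of a library's reads outside genes, 20.67 to 27.7% mapped to several places and 0.695 to 0.893% ambiguous between genes.

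The counts were scaled by TMM, and 16015 genes passed filterByExpr (minimum count of 10, groups of diet and feeding). The quasi-likelihood F test of edgeR 4.0.16 (R 4.3.3) was run with terms for diet and fasting. Calls have a Benjamini-Hochberg adjusted p under 0.05 over these genes. The error after ± is a standard error on the log2 scale, obtained as the fold change over the root of the F statistic. One fit of the 4 groups gave each diet's own contrast and their difference. Over 37 pairs of libraries from the same group, chi-square per gene was 6.46 to 287, and none was merged as a repeat. The labels do not say that each library is a separate mouse, so p-values measure the spread between libraries. The code was checked on simulated counts.

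Named genes follow a rule. In each direction it takes 12 called genes that were apart in both diets and averaged at least 1 CPM, by size of fold and skipping predicted names. It adds up to 5 called members of each of 45 lists, by p, and 24 fixed genes; further members are named from the lists. A few list members are counted but not reported here by name. The comparison, its members, the lists and the rule were chosen with earlier results of these data known. Promoters came from RefSeq's table for GRCm38.p6, matched by symbol. Alternatives included DESeq2 1.42.0, voom (limma 3.58.1), lane as a term, other filters and scalings, and leaving out libraries.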

Additional observations from a re-analysis of the deposited data

Results flagged for a closer look

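Within each group of 4 to 6 libraries, the highest and the lowest value of 46 genes and 15 marker sums were compared with the rest by Dixon's gap ratio. Of 244 such groups, 25 had a library set apart; chance alone sets apart about 1 in 20 groups.

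Ensure fasted 5, the library richest in tract markers, was the one set apart most often. It was high for Ank1 at 122 CPM (2.13 to 3.76 in the other Ensure fasted libraries), Coro2a at 220 CPM (30.6 to 52.6), Scd2 at 802 CPM (280 to 355) and the smooth muscle marker sum at 8790 CPM (697 to 1190). It was low for Trabd2b at 13.7 CPM (29.1 to 37.5), Paqr9 at 15.6 CPM (40.4 to 54.9), Lipe at 544 CPM (1010 to 1280) and Igf1 at 136 CPM (250 to 298).

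HFD fasted 28 was low for Asb12 at 0.0548 CPM (0.254 to 0.304 in the other HFD fasted libraries), Tuba1a at 155 CPM (202 to 210), Acly at 121 CPM (182 to 195), Slc2a4 at 65.4 CPM (95.1 to 101), the endothelial marker sum at 1220 CPM (1770 to 1860) and the smooth muscle marker sum at 503 CPM (975 to 989). It was high for Igf1 at 404 CPM (233 to 251).

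Among Ensure fed libraries, Ensure fed 16 was low for Glp2r at 0.258 CPM and Grid1 at 6.87 CPM, Ensure fed 9 was high for Acaca at 503 CPM and low for Cpt1a at 173 CPM, and Ensure fed 1 was high for Ucp1 at 18.4 CPM (0.0513 to 0.362 in the others) and for the stromal progenitor marker sum at 7890 CPM. Ensure fasted 2 was high for Ucp1 at 3.22 CPM (0.0507 to 0.2) and low for Acly at 213 CPM (318 to 361). HFD fed 25 was high for Odf3l1 at 9.54 CPM (4.04 to 4.56), and HFD fed 27 for the mesothelial marker sum at 225 CPM (124 to 130).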

How the results depend on the processing

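Of 203 genes computed at each setting, 193 were called; 188 of these had 1 sign in all 3 lanes taken alone, and 115 were called at every setting that gave a test. Most of the 203 were chosen by their values in these same libraries, and each lane holds some of those libraries. Their stability is therefore no independent check. The counts of all calls moved more. Against 1925 higher and 1926 lower genes, lane as a term called 394 and 1002, leaving out the 5 tract-rich libraries 851 and 1192, and leaving out these and 3 libraries rich in the kidney and tract marker Cdh16 1025 and 1096. Chosen after seeing the data, lane as a term without Ensure fed 18 called 427 and 1089. A test against a fold of 1.5 (glmTreat) called 22 and 67, and 19 and 148 genes were called in each diet's own contrast. Leaving out 1 library at a time called 1226 (without Ensure fed 18) to 2410 (without HFD fasted 28) higher and 1605 (without HFD fed 25) to 2701 (without HFD fasted 28) lower genes; without Ensure fed 9 and 12 the higher calls were 1254 and 1260. DESeq2 size factors, library size alone, either filter on low counts, DESeq2, voom, equal weight of the diets and no diet term left both counts within 1.5 times. Without the 5 libraries, 219 higher genes were apart in both diets, since fewer libraries have to be apart. For the difference between the diets' responses, added after seeing the data, DESeq2 called 65 genes and voom 1170. The causes were not tested, unless fewer samples or a narrower criterion are the alternative itself.

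The sign turned within single lanes for Bnc1 (lane 5, -0.031), Psat1 (lane 5, 0.0052), Spp1 (lane 6, -0.059), Cebpd (lane 7, -0.014) and Fkbp5 (lane 7, -0.11), and for Tnp2 without the 8 libraries (-0.080). At these depths 3 counts make 0.133 to 0.234 CPM, which limits low genes such as Asb12 and Dusp13 and covers counting error only. No paired analysis was possible because the groups share no replicate numbers in the labels.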

Other observations

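Some gene families that no list had covered were counted after their values were seen, so their choice is no evidence of a pattern. Beside 12% of all genes tested that were lower, 40 of 77 mitochondrial ribosomal protein genes were lower and 0 higher by edgeR, with a median log2 fold change of -0.26. Of 30 genes of mitochondrial import and chaperones 19 were lower and 1 higher, of 20 cytosolic aminoacyl-tRNA synthetases 11 and 0, of 23 importins and exportins 13 and 0, of 19 coat proteins of ER and Golgi vesicles 12 and 0, and of 16 subunits of protein phosphatase 2A 9 and 0. Without the 5 tract-rich libraries the lower counts were 26, 11, 9, 9, 10 and 8. Called falls included Timm8a1 (-0.92), Ppp2r5b (-0.91) and Mrps22 (-0.80) among the larger ones, and Timm23 (-0.57 ± 0.09), Kpnb1 (-0.54 ± 0.07), Eprs (-0.51 ± 0.09) and Ppp2ca (-0.50 ± 0.08). Proteasome subunits had 11 lower and 0 higher of 38, and 4 lower without the 5 libraries.

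Receptors and signal proteins of the fat cell surface were among the lower genes apart in both diets, again chosen after their values were seen. Cnr1, the cannabinoid receptor gene, read 10.2, 10.8, 12.4 and 13 CPM in HFD fed and 4.27, 5.07, 5.39 and 5.89 CPM in HFD fasted libraries, and 7.84, 8, 8.27, 9.88 and 10.4 CPM in Ensure fasted ones against 18 to 23.1 CPM in Ensure fed ones (-1.19 ± 0.09, adjusted p = 2.58e-07). Tshr, the thyrotropin receptor gene, read 178, 195, 229 and 253 CPM in HFD fed, 58.7, 91.3, 124 and 125 CPM in HFD fasted and 44.9, 100, 102, 111 and 121 CPM in Ensure fasted libraries, against 256 to 294 CPM in Ensure fed ones (-1.34 ± 0.17, adjusted p = 4e-05). Mrap, a partner of melanocortin receptors (-1.28 ± 0.16), and Ptger3, a prostaglandin receptor gene (-0.89 ± 0.14), fell too. Cdkn2c, a cell cycle inhibitor that rises in fat cell formation, read 106, 114, 129 and 138 CPM in HFD fed and 40, 47.7, 53 and 53.6 CPM in HFD fasted libraries, and 32.4, 54.2, 64.1, 64.9 and 73.6 CPM in Ensure fasted ones against 179 to 217 CPM in Ensure fed ones (-1.59 ± 0.13, adjusted p = 1.5e-06). Slc25a10, a mitochondrial dicarboxylate carrier (-1.63 ± 0.15, adjusted p = 3.34e-06), and Nnmt, a nicotinamide methyltransferase (-1.25 ± 0.15, adjusted p = 2.46e-05), were apart in both diets. In the upward direction Pik3ip1, an inhibitor of PI3 kinase (0.94 ± 0.12, adjusted p = 6.12e-05), and Mxi1, an antagonist of Myc (0.59 ± 0.08, adjusted p = 8.37e-05), were apart in both diets.

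The predicted gene Gm9696, passed over by the naming rule, had a larger fall than any named gene. It read 6.15, 10.9, 14.6 and 38.5 CPM in HFD fed and 0.695, 2.18, 2.25 and 3.7 CPM in HFD fasted libraries, and 0.7, 1.61, 2.24, 4.34 and 4.77 CPM in Ensure fasted ones against 40.4 to 94.3 CPM in Ensure fed ones (-3.81 ± 0.45, adjusted p = 2.33e-05). Every fasted library of either diet was below every fed one.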
